A study of Mus musculus with 4 samples.

Results

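Basal cells of the pubertal mammary gland were compared with basal cells of the adult gland in droplet single-cell RNA counts. The members of the comparison were chosen by a fixed rule on these same counts. A cell was taken as basal if it had a count for at least 4 of Krt5, Krt17, Acta2, Myl9, Tagln, Mylk and Cnn1, for at most 1 of the luminal progenitor (LP) genes Cd14, Lalba, Plb1, Atp6v1b1 and Aldh1a3, and for at most 1 of the mature luminal (ML) genes Stc2, Upk3a, Plac8, Tspan1, Prlr and Cited1. Of the puberty barcodes 1053 of 5428 met the rule (19.4%). The adult libraries gave 1283 of 2729 (47.0%) for estrus and 1021 of 2439 (41.9%) for diestrus, so that 3357 of 10596 cells entered. Genes were then selected on their direction: of 27998 genes in each table, 4993 reached the minimum level, and 3296 of these lay on the same side of both adult libraries. Those directions and sizes are what chose the genes, so they are given as a description, with no test.

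The pubertal mice were 5 weeks old and the adult mice 10 weeks old, all of the FVB/NJ strain and without any stated treatment. The adult glands were taken in estrus or in diestrus, the phase after the oestrogen peak and the phase led by progesterone, as staged by vaginal cytology. Each library pooled the sorted epithelium (negative for blood and endothelial antigens, positive for CD24) of more than 1 mouse. With 1 library at each stage there was no replicate error, and age, cycle phase and library cannot be told apart. Intervals are 95% intervals that cover counting error only.

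Basal cells form the outer layer of the mammary duct. They contract under oxytocin to expel milk, lay down the basement membrane that surrounds the duct, and in puberty also form the cap cells at the tip of the growing duct, the terminal end bud. Ductal growth in puberty is driven by oestrogen acting on mature luminal cells, which release the epidermal growth factor receptor ligand amphiregulin. The comparison asks which basal transcripts differ between the growing gland and the gland that has filled its fat pad.

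The label of the cells was checked on markers outside the rule. Krt14, a keratin of basal epithelium that the rule did not use, had a count in 90.9% of the pubertal basal cells (interval 89.0 to 92.6), and in 3.98% of the pubertal LP cells. The adult basal shares were higher, at 96.65% in estrus and 96.96% in diestrus. Exactly 4 of the basal genes, the minimum, were found in 108 of 1053 pubertal, 44 of 1283 estrus and 39 of 1021 diestrus basal cells. All others had more. Krt14 had a count in 62.0%, 61.4% and 76.9% of the cells at that minimum. Trp63, the basal transcription factor, was at 78.8, 78.8 and 75.6 CPM (counts for each 1e6 in the pool) in puberty, estrus and diestrus. Defining markers of blood and vessel cells were near 0 in the pubertal pool, where Ptprc (leukocytes) had a count in 0 of 1053 cells, Rgs5 (pericytes) in 1 and Pecam1 (endothelium) in 6. The summed level of 12 pericyte and smooth muscle markers was 16.7 CPM in puberty, 83.2 in estrus and 30.1 in diestrus. The summed level of 14 immune markers ranged from 6.52 to 8.54 CPM, and that of 12 endothelial markers from 21.9 to 44.2. The 12 fibroblast markers summed to 366, 365 and 333 CPM in puberty, estrus and diestrus, most of it Dcn and Fbln1, while Col1a1, Col1a2 and Col3a1 were at 1.70, 2.27 and 0.567 CPM in puberty. The 8 Schwann and nerve markers summed to 40.5, 33.9 and 68.9 CPM, led by Sox10 and Ngfr.

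The basal cells had a median of 2885 UMIs (unique molecules) in puberty, 2549 in estrus and 3416 in diestrus. Their summed counts were 3751596, 4318153 and 4618085. Mitochondrial transcripts were 1.25%, 1.04% and 0.749% of these counts, and ribosomal protein transcripts 22.2%, 16.7% and 23.5%. A second puberty table shared 5387 barcodes with the first, so it counts the same cells again and served as a technical check only. Other pairs of libraries shared 13 to 24 barcodes. The rule left out 118 pubertal, 41 estrus and 47 diestrus cells that had enough basal genes but too many luminal ones. In these the median was 6754 UMIs in puberty, above that of the cells kept.

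Of the 4993 genes measured at a mean of 20 CPM or more, 74 (1.48%) were at least 2-fold higher in pubertal basal cells than in both adult libraries, and 43 (0.861%) were at least 2-fold lower than in both. At any size of difference, 1801 genes (36.1%) were higher than in both and 1495 (29.9%) were lower. The other 1697 genes lay between the adult libraries. The levels are CPM scaled by trimmed mean of M values (TMM), and the ratios are log2((CPM + 1) in puberty / (CPM + 1) in the adult). The ratios to estrus and to diestrus share the puberty library, so they are given side by side. Scaling by total counts alone moved the median gene by -0.13 on the log2 scale and turned the split into 54 higher and 60 lower genes.

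**Figure D1:**
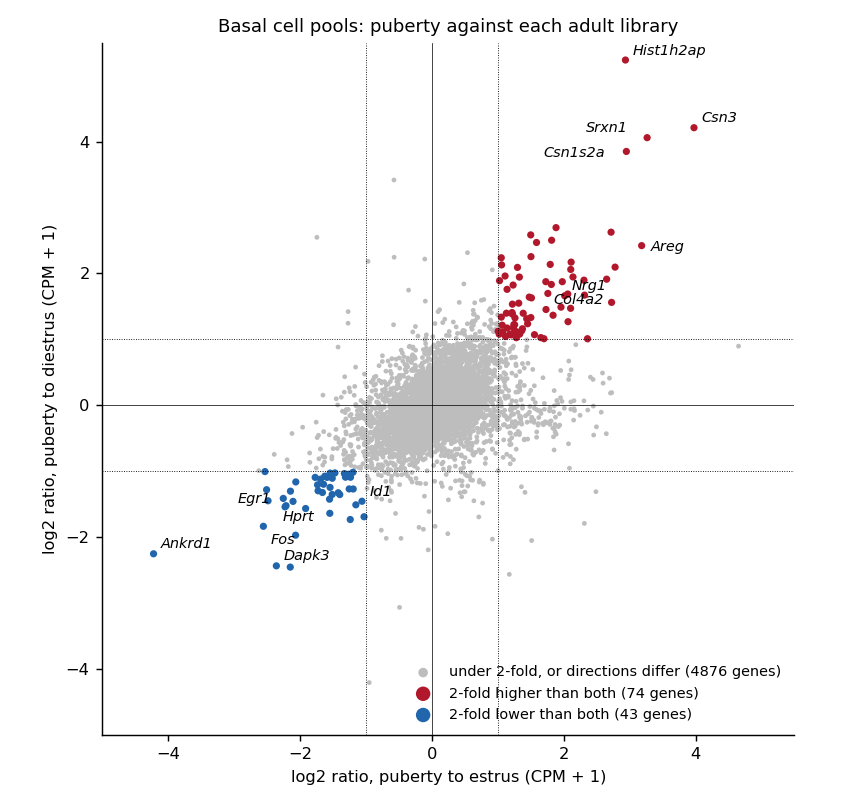
Log2 ratio of puberty to estrus (horizontal) against log2 ratio of puberty to diestrus (vertical) for the 4993 measured genes in basal cell pools, 1 point per gene, with dotted lines at 2-fold. The 74 red genes were at least 2-fold higher and the 43 blue genes at least 2-fold lower than in both adult libraries, with Csn3 and Hist1h2ap at the upper right and Ankrd1 at the far left.

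The adult libraries also differed from each other. In basal cells 321 genes (6.43%) were at least 2-fold higher in diestrus than in estrus and 129 (2.58%) were at least 2-fold lower. Against estrus alone 309 genes were 2-fold higher in puberty and 180 lower, and against diestrus alone 153 were higher and 126 lower. Between both puberty tables, over the same cells, 0 genes (0.0%) were 2-fold apart, with a largest difference of 0.91 on the log2 scale. The calls moved more. With the second table over those cells, 70 genes were called higher, 63 of them among the 74. The lower calls were 54, with 33 of them among the 43. At the limit of the rule, Col4a5, Mt2 and Sdc1 were just inside, with log2 ratios of 1.006, 1.009 and 1.009 to the nearer adult library, and Nrip1 and Smim3 were just outside at 0.998 and 0.992. Among the lower genes Fhod3 was just inside at -1.007 and Fxyd6 just outside at -0.993.

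With ribosomal and unnamed gene models aside, the largest ratios to the nearer adult library were those of Csn3, Srxn1, Csn1s2a, Hist1h2ap and Areg, in that order. Csn3, which encodes kappa-casein, lies on chromosome 5 (87925579 to 87932665, plus strand, GRCm38). It was at 304 CPM in puberty (1072 counts), 18.4 in estrus (86 counts) and 15.5 in diestrus (70 counts). The pubertal level stood far above both adult levels, with log2 ratios of 3.98 (interval 3.73 to 4.38) and 4.21 (3.95 to 4.67). To compare shares of cells at 1 depth, each cell was thinned to 2000 UMIs, which left out 245 pubertal, 348 estrus and 184 diestrus basal cells below that depth. After thinning 16.2% of pubertal basal cells had a Csn3 count (13.7 to 18.9), against 1.71% in estrus and 1.67% in diestrus (17.5%, 3.59% and 4.11% without thinning). The cell with most Csn3 held 9.80% of the pubertal counts, and 298 of the 1072 counts came from the 95 cycling cells.

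Csn3 is a luminal progenitor gene, so the level of luminal transcripts in the basal pools was set beside it. In puberty Csn3 was at 9515 unscaled CPM in LP cells, 286 in basal cells and 75.2 in ML cells, which should lack it as well. Thinned ML cells had a Csn3 count in 6.95% of cases, below the basal share of 16.2%. Within the puberty library the ratio of Csn3 to Csn1s2a counts was 4.96 in basal cells, 0.557 in LP cells and 0.747 in ML cells. The ratio of Spp1 to Csn1s2a counts, by contrast, was 2.05, 2.08 and 2.43 in these classes. It was 4.15, 2.46 and 9.02 in estrus and 11.5, 16.4 and 4.64 in diestrus, so it too differed between classes in the adult libraries. In estrus the ratio of Csn3 to Csn1s2a also differed between LP cells (0.772) and ML cells (4.02, from 63 Csn1s2a counts), so it is not constant across classes there. In adult basal cells it was 2.61 in estrus (33 Csn1s2a counts) and 4.67 in diestrus (15 Csn1s2a counts). The diestrus LP ratio was 2.73, so a basal ratio above that of LP cells was not particular to puberty. In the adult libraries the basal Csn3 shares were no higher than those of thinned ML cells, 3.76% in estrus and 2.88% in diestrus.

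In pooled level Csn1s2a and Spp1 stood differently. Csn1s2a, another casein, was at 61.2, 7.04 and 3.32 CPM in basal cells of puberty, estrus and diestrus, with log2 ratios of 2.95 and 3.85. In unscaled CPM it was at 57.6 in pubertal basal cells but 101 in pubertal ML cells, so the basal level was no higher than in cells that should lack the gene. Spp1 (osteopontin) was at 118 unscaled CPM in pubertal basal cells and 245 in pubertal ML cells. Its basal log2 ratios were 2.06 and 1.69. As a percentage of the level over all barcodes, basal Spp1 was 1.13% in puberty, 0.674% in estrus and 0.953% in diestrus. For Csn1s2a these values were 1.26%, 0.446% and 1.21%, and for Csn3 9.82%, 1.33% and 1.95%. Of 30 luminal markers, 14 were measured. At least 2-fold higher were 4 (Csn3, Csn1s2a, Spp1 and Areg) and none was 2-fold lower, beside 1.48% and 0.861% of all measured genes. The median log2 ratio of the 14 was 0.59, beside 0.05 for all measured genes. Krt18, an abundant luminal keratin, was at 331, 457 and 185 CPM in puberty, estrus and diestrus, between the adult levels. The part of luminal RNA in the ratios of these genes was not tested.

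Growth factor genes were among those higher in puberty. Areg, the amphiregulin gene, was at 62.4 CPM in puberty (220 counts), 5.98 in estrus (28 counts) and 10.8 in diestrus (49 counts). The log2 ratios were 3.18 (2.81 to 4.01) and 2.42 (2.07 to 3.003). Mature luminal cells hold most Areg, at 3030 unscaled CPM in puberty, and pubertal LP cells were at 18.8 against 58.6 in basal cells. The share of thinned cells with an Areg count was 6.81% in pubertal basal cells (5.17 to 8.77) and 3.03% in pubertal LP cells (2.05 to 4.30), against 0.749% and 2.15% in estrus and diestrus basal cells (9.88%, 1.17% and 3.72% in basal cells without thinning). In ML cells the Areg ratios were 2.41 and 0.79, so the gene was higher in puberty there as well. Over all barcodes Areg was at 1493, 261 and 607 unscaled CPM in puberty, estrus and diestrus. Its basal level was 3.93%, 2.49% and 1.75% of these, so the whole-library level also rose in puberty. The part of luminal RNA in the Areg ratios was not tested. Nrg1, a ligand of the receptors ERBB3 and ERBB4, was at 119, 28.6 and 36.9 CPM, with log2 ratios of 2.02 and 1.66. Igfbp4, which binds insulin-like growth factors, was at 170, 74.3 and 79.8 CPM (ratios 1.18 and 1.08).

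Among 33 genes of EGF, FGF and IGF signalling, 12 were measured, these 3 were 2-fold higher than in both adult libraries, and none was 2-fold lower. At any size 9 of the 12 were higher and 2 were lower. Over all measured genes 1.48% were 2-fold higher, 36.1% higher at any size and 29.9% lower. Igfbp5 was at 913, 513 and 515 CPM (ratios 0.83 and 0.82). Hbegf, another ligand of the EGF receptor, had ratios of 0.95 and 0.50. On the lower side stood Igfbp7 at 260, 508 and 586 CPM (-0.96 and -1.17) and the feedback inhibitor Spry1 (-0.89 and -0.71). The list median was 0.43 in basal cells and, over the same genes, 0.67 in LP cells and 0.03 in ML cells.

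Crabp2, Reln, Slc1a3 and Mest were higher in pubertal basal cells. Crabp2 had little matching difference in luminal cells, and Reln, Slc1a3 and Mest had too few luminal counts for their luminal ratios to be read. Reln, which encodes the secreted glycoprotein reelin, was at 50.5, 9.39 and 12.8 CPM (2.31 and 1.90) and had a count in 7.18%, 1.82% and 2.63% of thinned basal cells (11.97%, 2.81% and 5.19% without thinning). No LP cell of any library had a Reln count. Slc1a3, a glutamate and aspartate transporter, was at 65.2, 14.3 and 13.7 CPM (2.11 and 2.17). Its pools held at most 6 counts in LP cells and 1 in ML cells.

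Mest, an imprinted gene expressed in growing tissues, was at 87.0, 22.8 and 12.6 CPM (1.88 and 2.69). Of its 307 pubertal counts, 141 came from the 95 cycling cells. Crabp2 carries retinoic acid to its nuclear receptor. It was at 72.3, 16.01 and 16.6 CPM in basal cells (2.11 and 2.06), while LP cells held more of it, at 216, 246 and 177 CPM, with ratios of -0.18 and 0.29, and the ML ratios were -0.10 and -0.33.

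Cell surface and stress genes were higher in several lineages. Srxn1 encodes sulfiredoxin, which restores oxidised peroxiredoxins. It lies on chromosome 2 (152105516 to 152111376, plus strand) and was at 130 CPM in puberty (458 counts), 12.6 in estrus (59 counts) and 6.85 in diestrus (31 counts). The log2 ratios were 3.27 (2.97 to 3.78) and 4.06 (3.72 to 4.82), and 18.2% of thinned pubertal basal cells had a count, against 1.71% and 1.31% (21.8%, 2.96% and 2.35% without thinning). Srxn1 was also higher in LP cells (1.995 and 2.12) and in ML cells (1.02 and 1.70). Hmox1, another antioxidant enzyme gene, was at 149, 71.1 and 30.7 CPM in basal cells, and the metallothionein gene Mt2 at 4598, 894 and 2284.

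Plaur, the receptor for urokinase, was at 184, 41.0 and 47.1 CPM (2.14 and 1.95). F3, or tissue factor, the starter of blood coagulation, was at 221, 62.1 and 38.2 CPM (1.82 and 2.50). In LP and ML cells the Plaur ratios lay between 2.15 and 2.41 and the F3 ratios between 1.91 and 3.14.

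Srxn1, Plaur and F3 were higher in puberty in all 3 lineages, and their promoters share a short run of letters. Promoter sequences of RefSeq (build GRCm38.p6, 250 bases before to 50 after a start) were found for 24 of the 36 genes named by rule. The heptamer TGANTCA, which reads the same on both strands and is the core bound by the AP-1 factors of the FOS and JUN families, was present in 3 of the 9 genes with a promoter among the 15 named higher genes and in 0 of 11 among the 15 lower genes. The lower gene model Gm12216, outside those 15, also holds it. The heptamer was present in 7.79% of 32544 promoters of that length, and no other motif was searched for. Groups of 9 and 11 promoters are too few to set against that share, and the difference between them was not tested. The promoter of Csn1s2a, also 2-fold higher in all 3 lineages, holds no match, and no promoter was found for Hist1h2ap. The windows upstream of the start are shown for the 3 higher genes that hold the heptamer, which is in capitals. A match is a description of the letters, not evidence of binding.
Srxn1, chr2:152105274-152105505, plus strand: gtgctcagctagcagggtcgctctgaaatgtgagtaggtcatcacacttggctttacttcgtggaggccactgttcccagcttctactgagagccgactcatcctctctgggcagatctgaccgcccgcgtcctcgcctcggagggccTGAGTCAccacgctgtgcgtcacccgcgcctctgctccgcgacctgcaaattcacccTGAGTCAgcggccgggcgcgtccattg
Plaur, chr7:24462233-24462472, plus strand: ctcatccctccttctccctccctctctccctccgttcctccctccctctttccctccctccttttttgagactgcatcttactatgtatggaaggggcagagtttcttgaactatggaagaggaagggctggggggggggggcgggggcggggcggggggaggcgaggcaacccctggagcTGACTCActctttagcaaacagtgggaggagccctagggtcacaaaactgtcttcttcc
F3, chr3:121723287-121723526, plus strand: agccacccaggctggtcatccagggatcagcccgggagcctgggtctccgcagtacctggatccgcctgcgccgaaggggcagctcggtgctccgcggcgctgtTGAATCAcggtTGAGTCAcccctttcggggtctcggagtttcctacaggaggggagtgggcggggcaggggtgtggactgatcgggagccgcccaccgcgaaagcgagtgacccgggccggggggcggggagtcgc
The first bases of the matches lay 102 and 45 bases before the start in Srxn1, 69 before it in Plaur, and 146 and 135 before it in F3.

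**Figure D2:**
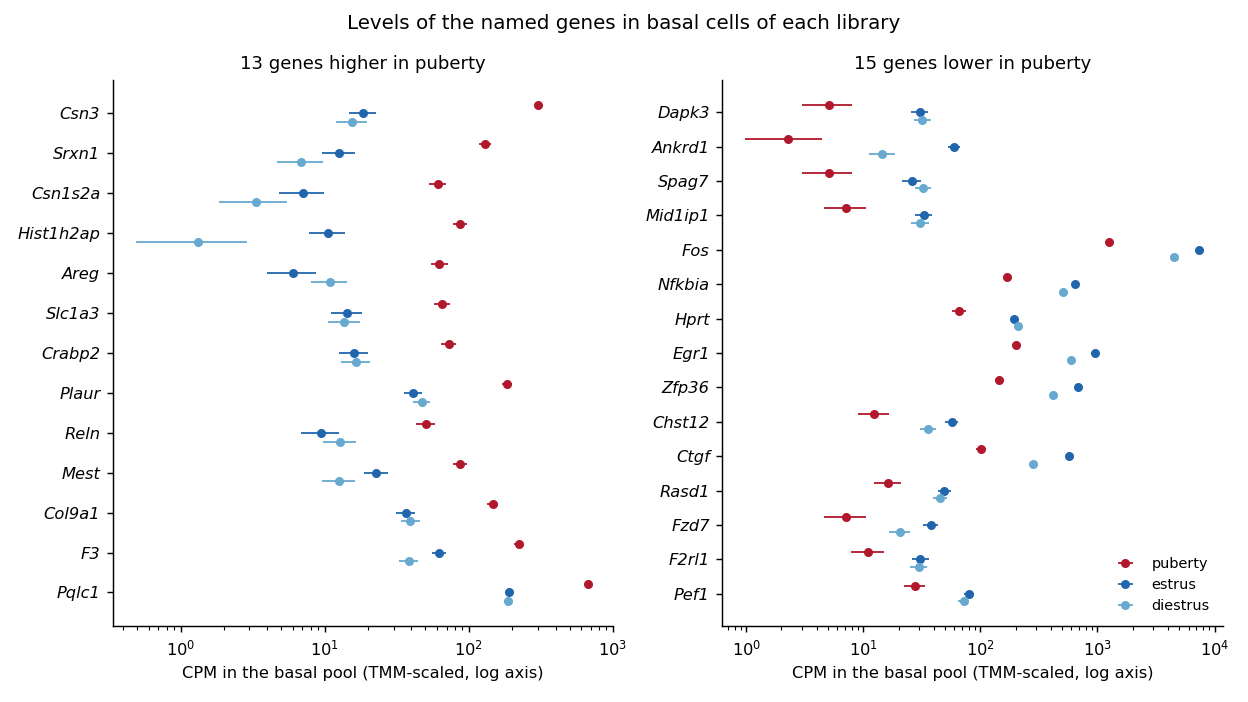
TMM-scaled CPM (horizontal, log axis) of 13 of the named higher genes (left) and the 15 named lower genes (right) in the basal pool of each library, with exact Poisson intervals as bars. In every row the pubertal point lies on one side of both adult points, and the bars are widest for Ankrd1 in puberty (8 counts) and Hist1h2ap in diestrus (6 counts).

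Many genes of the basement membrane and matrix were higher in puberty, most of them by less than 2-fold. Of 48 listed genes 34 were measured. At least 2-fold higher than in both adult libraries were 3 (Col4a2, Lama5 and Col7a1), beside 1.48% of all measured genes, and none was 2-fold lower. At any size 21 of the 34 were higher than in both and 4 were lower, beside 36.1% and 29.9% of all measured genes, with a median log2 ratio of 0.40 against 0.05 for all measured genes. The median was 0.20 in LP and -0.11 in ML cells over the same genes.

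Type IV collagen forms the mesh of the basement membrane. Col4a2 was at 338 CPM in puberty, 101 in estrus and 123 in diestrus (1.73 and 1.45), and Col4a1 at 388, 143 and 218 (1.43 and 0.83). Col4a5, another chain, was at 34.9, 16.9 and 15.5 CPM. All these chains were above both adult levels, with Col4a1 short of 2-fold against diestrus. Among laminins, Lama5 was at 43.7, 18.1 and 16.1 CPM (1.22 and 1.38), Lama1 at 71.1, 38.2 and 38.01, Lamb1 at 110, 63.8 and 61.0 and Lamc1 at 79.9, 45.0 and 48.4. Lamb3, a chain of the laminin that anchors stable epithelia, went the other way at 118, 199 and 134 CPM (-0.74 and -0.17).

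Col7a1, the collagen of anchoring fibrils, was at 66.0, 25.6 and 30.7 CPM (1.33 and 1.08). Vcan, a large proteoglycan, was at 100, 36.3 and 53.9 CPM (1.44 and 0.88). Col9a1, a cartilage-type collagen chain outside the list, was at 147, 36.5 and 39.3 CPM (1.98 and 1.87). The small proteoglycan gene Bgn was lower, at 111, 248 and 143 CPM (-1.15 and -0.36). Dcn, a proteoglycan gene typical of fibroblasts, was at 265, 271 and 246 CPM.

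Of 21 integrin and adhesion genes 10 were measured, with 7 higher than both adult libraries (36.1% over all measured genes), none lower, and none 2-fold. Itga6, the laminin receptor used to sort basal cells, was at 270, 217 and 159 CPM, and Cd44 at 55.8, 27.1 and 35.4. The list of 20 terminal end bud and cap cell genes had 11 measured members. At any size 8 were higher (36.1% over all measured genes) and 1 was lower, and none was 2-fold in either direction. Sox9 was at 132, 86.0 and 58.8 CPM (0.61 and 1.15), Epha2 at 64.6, 37.99 and 20.8 (0.75 and 1.59) and Fbln2 at 181, 89.2 and 137 (1.01 and 0.40). The lower gene was Cxcl14, at 2105 CPM against 4387 in estrus and 2189 in diestrus.

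A list of 5 genes came from the study itself, which chose them on pubertal cells profiled on another platform. All were measured, Nrg1 was 2-fold higher, 3 were higher at any size and none was lower than both. Over all measured genes these shares were 1.48%, 36.1% and 29.9%. Snai2 was at 50.5, 32.4 and 30.5 CPM (0.62 and 0.71) and Moxd1 at 112, 52.1 and 84.6 (1.09 and 0.40). Bmp7 at 92.4, 67.5 and 96.1 CPM and Wif1 at 317, 339 and 298 lay between the adult libraries.

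Immediate early genes were lower in pubertal basal cells. These genes are switched on within minutes of a stimulus, and tissue digestion is among the stimuli known to do so. Fos, the founding AP-1 gene, lies on chromosome 12 (85473890 to 85477273, plus strand). It was at 1260 CPM in puberty (4445 counts), 7415 in estrus (34742 counts) and 4504 in diestrus (20384 counts). The log2 ratios were -2.56 (-2.60 to -2.51) and -1.84 (-1.89 to -1.79). A Fos count was present in 42.7% of thinned pubertal basal cells (39.3 to 46.2). The adult shares were 94.1% for estrus (92.4 to 95.5) and 87.5% for diestrus (85.02 to 89.6), and without thinning the shares were 56.9%, 97.1% and 95.3%.

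Of 28 immediate early and heat shock genes 26 were measured. At least 2-fold lower than in both adult libraries were 7 (Fos, Fosb, Jun, Egr1, Zfp36, Btg2 and Nr4a1), and 1, Fosl1, was 2-fold higher, beside 0.861% and 1.48% of all measured genes. At any size 16 were lower and 7 were higher (29.9% and 36.1% over all measured genes), with a median of -0.86 against 0.05 for all measured genes. Egr1 was at 203, 954 and 593 CPM (-2.23 and -1.54), Zfp36, which destabilises AU-rich messages, at 146, 679 and 421 (-2.21 and -1.52) and Jun at 556, 1622 and 1320 (-1.54 and -1.25). Junb was at 2291, 8261 and 4176 CPM (-1.85 and -0.87).

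Not all members were lower. Fosl1, an AP-1 gene of slower kinetics, was at 238, 98.6 and 94.4 CPM (1.26 and 1.32). The heat shock genes Hspa8, Hsp90aa1 and Dnaja1 were higher than in both adult libraries. Hspa8 was at 4935, 4530 and 3160 CPM, Hsp90aa1 at 1032, 871 and 807 and Dnaja1 at 1690, 1198 and 802. Hspa1a lay between the adult libraries at 240, 602 and 178 CPM.

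Luminal cells of the same libraries showed smaller ratios of the same sign. Fos ratios were -1.43 and -0.65 in LP cells and -1.31 and -0.95 in ML cells, where its level in puberty was 2946 and 2474 CPM. The list median was -0.39 in LP and -0.61 in ML cells. Nr4a1 was lower in basal cells (234, 588 and 481 CPM, -1.33 and -1.04) but not in LP cells (-0.01 and 0.20). The part of tissue handling in these ratios was not tested. Nfkbia, the inhibitor of NF-kB, was at 170, 642 and 504 CPM in basal cells (-1.92 and -1.57), with ratios of -0.84 and -0.73 in LP cells and 0.19 and -0.08 in ML cells.

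Ankrd1 and Ctgf, textbook targets of the YAP and TAZ coactivators that respond to tension, were lower. Ankrd1 lies on chromosome 19 (36111961 to 36120099, minus strand) and was at 2.27 CPM in puberty, 60.0 in estrus and 14.6 in diestrus. Its counts were 8, 281 and 66, so the pubertal level rests on few molecules. The cell with most Ankrd1 held 37.5% of these counts in puberty, 5.69% in estrus and 25.8% in diestrus. The log2 ratios were -4.22 (-5.95 to -3.73) and -2.25 (-3.96 to -1.62), with intervals that leave out this spread between cells. A count was present in 0.371% of thinned pubertal basal cells, 8.66% in estrus and 2.03% in diestrus (0.380%, 9.35% and 2.64% without thinning). LP and ML pools held at most 5 Ankrd1 counts. Ctgf was at 102, 574 and 280 CPM (-2.49 and -1.45) and had a count in 12.0%, 51.7% and 25.7% of thinned basal cells (16.6%, 59.7% and 39.7% without thinning). Yap1 was flat at 44.5, 45.0 and 41.1 CPM, and Wwtr1, which encodes TAZ, was at 86.4, 83.5 and 50.6.

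Developmental signalling genes were lower one by one rather than as lists. Fzd7, a Wnt receptor of basal cells, was at 7.09, 37.6 and 20.6 CPM (-2.25 and -1.41). A count was present in 0.743%, 8.02% and 3.94% of thinned basal cells (2.09%, 11.8% and 8.42% without thinning). It was the only one of 14 measured Wnt pathway genes (of 39 listed) past 2-fold against both adult libraries. The median of that list was -0.13, with 4 higher and 5 lower at any size (36.1% and 29.9% over all measured genes). Over all measured genes 0.861% were 2-fold lower. Wnt5b was at 16.2, 35.2 and 31.8 CPM (-1.08 and -0.94) and the feedback inhibitor Nkd1 at 62.1, 95.4 and 99.7.

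Id1, a target of BMP signalling that blocks differentiation factors, was at 29.5, 62.5 and 82.6 CPM (-1.06 and -1.46). It was the only 2-fold gene of 18 measured TGF-beta and BMP genes (median -0.11), beside 0.861% of all measured genes 2-fold lower. At any size 9 of the 18 were lower and 3 higher (29.9% and 36.1% over all measured genes). Id4 was at 11.3, 22.8 and 227 CPM, so its lower level in puberty was mostly a difference from diestrus. Smad1 was higher at 69.4, 38.6 and 34.3 CPM (0.83 and 0.999), and Fst, which encodes the activin antagonist follistatin, was at 578, 229 and 479.

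Basal identity genes were close between the stages. Of 20 measured transcription factors 9 were higher, 8 were lower (36.1% and 29.9% over all measured genes) and none was 2-fold, with a median of 0.04. The IRX factors stood together on the lower side. Irx4 was at 28.3, 57.0 and 69.4 CPM (-0.98 and -1.26), Irx3 at 24.4, 49.1 and 47.7 and Irx5 at 44.2, 91.8 and 72.9, and Irx1, outside the list, at 31.5, 73.2 and 77.3 CPM was past 2-fold (-1.19 and -1.27). On the higher side stood Hif1a at 116, 59.3 and 65.9 CPM and Klf5 at 145, 83.0 and 85.7.

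Contractile genes did not share a direction. Of 22 measured, 7 were higher, 5 lower (36.1% and 29.9% over all measured genes) and 10 in between, and the median was -0.06. Acta2, Myl9, Tagln, Mylk and Cnn1 of this list belong to the cell rule, so the rule partly sets their levels. Acta2, smooth muscle actin, was at 12180, 14180 and 11370 CPM. Oxtr, the oxytocin receptor, was at 71.1, 260 and 118 CPM (-1.85 and -0.73), Lmod1 at 74.5, 203 and 118 (-1.44 and -0.66) and Pdlim3 at 214, 435 and 325 (-1.02 and -0.60). The summed level of the list was 34400, 40430 and 31680 CPM. The 4 measured basal keratins had a median of 0.05, with Krt15 at 822, 311 and 1182 CPM and Krt5 at 445, 699 and 521. Krt5 and Krt17 are also genes of the rule.

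**Figure D3:**
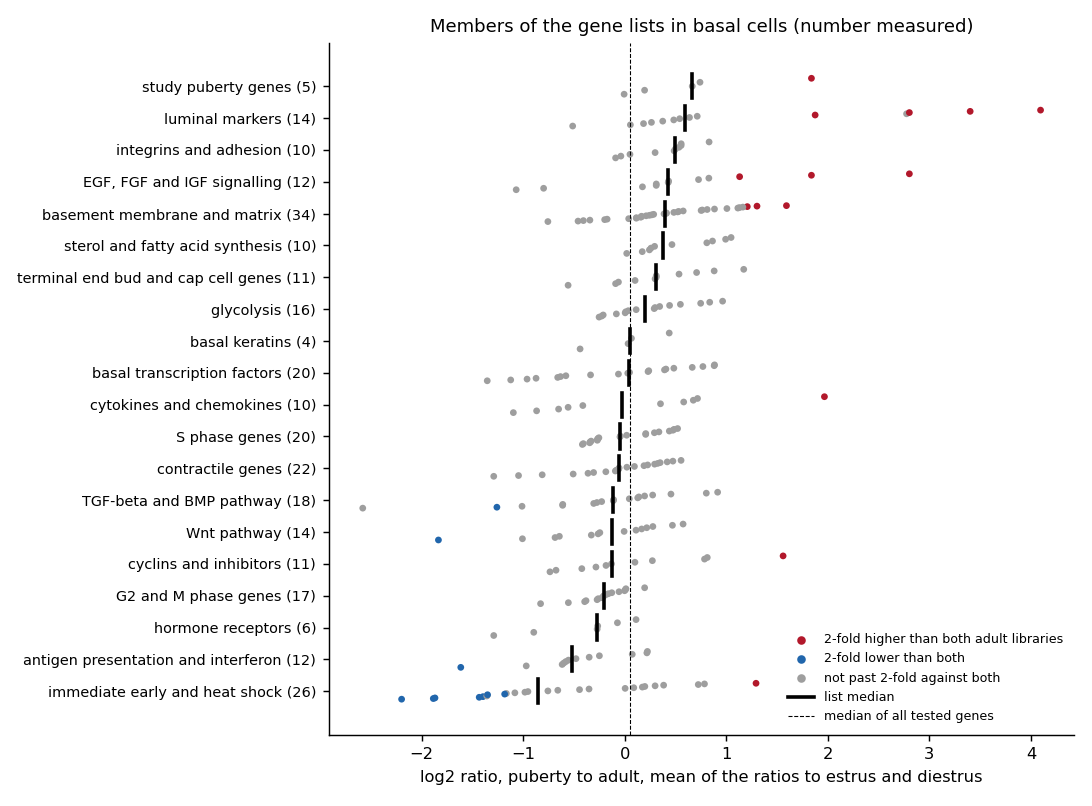
Log2 ratio of puberty to adult in basal cells, averaged over both adult libraries (horizontal), for each measured member of the gene lists with 4 or more measured genes, with the list median as a bar. The matrix list has a median of 0.40 and the immediate early list one of -0.86, and the dashed line marks the median of all measured genes, 0.05.

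In the metabolic and immune lists few genes were past 2-fold. Of 10 measured sterol and fatty acid genes 8 were higher than in both adult libraries, none lower and none 2-fold (median 0.38), beside 36.1% higher and 29.9% lower over all measured genes, with Msmo1 at 42.2, 18.1 and 23.6 CPM and Idi1 at 42.8, 14.9 and 27.2. Among 16 glycolysis genes 6 were higher and 3 lower (median 0.20). Ldha was at 1789, 850 and 990 CPM (1.07 and 0.85). Of 12 antigen presentation and interferon genes 8 were lower (29.9% over all measured genes) and 1 was higher (median -0.52), and Irf1, the interferon response factor, was 2-fold lower at 50.7, 215 and 115 CPM. H2-D1, a class I antigen, was at 953, 1390 and 1461.

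Cytokine genes split evenly, 5 higher and 5 lower of 10 (36.1% and 29.9% over all measured genes). Ccl7, which attracts monocytes, was 2-fold higher at 55.8, 15.4 and 11.9 CPM (1.80 and 2.14), and Ccl2 was at 127, 74.5 and 79.3. Pthlh was at 37.4, 55.3 and 119 CPM. Notch genes gave 2 measured members, Hes1 (169, 244 and 175 CPM) and Dll1 (135, 171 and 72.3). Of 6 measured hormone receptor genes 2 were lower, none higher (median -0.27).

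Cycling cells were set beside the ratios because they carry their own genes. A basal cell was called cycling with a count for at least 3 of 10 genes, all from the G2 and M phase list. No gene of the S phase list was used, so the call can miss cells in S phase. In puberty 95 of 1053 cells were cycling, or 9.02% (7.36 to 10.9). The shares were 4.68% for estrus (60 of 1283, 3.59 to 5.98) and 17.7% for diestrus (181 of 1021, 15.4 to 20.2). The pubertal share lay between the adult shares, outside both intervals. Of 20 measured S phase genes 18 lay between the adult libraries, and so did 16 of 17 G2 and M phase genes, beside 1697 of all 4993 measured genes. The G2 and M list holds the 10 genes of the call, so its position is not separate from the cycling share. Cdkn1c, an imprinted inhibitor of the cycle, was 2-fold higher at 121, 42.9 and 38.2 CPM (1.48 and 1.64). Ccnd1 was at 135, 37.8 and 159 CPM and Ccnd2 at 246, 97.5 and 199.

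Hist1h2ap, a replication histone, was at 86.7, 10.5 and 1.33 CPM (2.94 and 5.24) although diestrus held more cells called cycling by G2 and M genes. Of its 306 pubertal counts 252 came from cycling cells. The last 500 bases of its transcripts share 93.4% of their 31-letter stretches with other genes, first of all Hist1h2ao, so its count is uncertain. The same holds for Gm10076 (84.2% shared, Rpl41 first), Gm10073 (75.8%, Rplp1 first) and Rpl35 (55.1%), which were higher at 686, 103 and 110 CPM, at 160, 63.2 and 40.9 and at 2727, 633 and 984. All 4 were higher in LP and ML cells too.

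Several genes differed in the same direction in every lineage of the puberty library. Dapk3, a kinase of the myosin light chain, was at 5.10, 30.3 and 32.0 CPM in basal cells (-2.36 and -2.44), with ratios of -2.21 and -2.15 in LP cells and -1.43 and -1.47 in ML cells. Spag7 (5.10, 26.0 and 32.5 CPM) had ratios of -2.15 and -2.46 in basal and from -1.78 to -1.52 in luminal cells. Hprt, a purine salvage enzyme, was at 66.0, 195 and 208 CPM (-1.55 and -1.64), with luminal ratios from -1.54 to -1.16. On the higher side Pqlc1 was at 671, 190 and 188 CPM (1.81 and 1.83), with luminal ratios from 0.92 to 1.24. Age and library cannot be told apart in these ratios.

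Of the 15 named higher genes 5 (Srxn1, Csn1s2a, Hist1h2ap, Plaur and F3) were at least 2-fold higher in both LP and ML cells against both adult libraries. Of the 15 named lower genes 3 (Dapk3, Spag7 and Hprt) were at least 2-fold lower in both. How many of all measured genes did so in either direction was not counted, so these counts have no background share beside them. Among the genes whose basal ratio departed most from the luminal ratios were Csn3, Reln, Crabp2 and Slc1a3 on the higher side and Ankrd1, F2rl1, Nr4a1, Rasd1 and Cd200 on the lower side. Reln, Slc1a3 and Ankrd1 had at most 6 counts in any LP or ML pool, so their departure mostly restates the basal ratio. F2rl1, a protease-activated receptor, was at 11.1, 30.7 and 29.8 CPM in basal cells (-1.40 and -1.36). Rasd1, a small GTPase induced by glucocorticoids, was at 16.2, 49.3 and 45.1 CPM (-1.55 and -1.43). Cd200, a surface protein that restrains myeloid cells, was at 48.5, 140 and 106 CPM (-1.51 and -1.11).

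**Figure D4:**
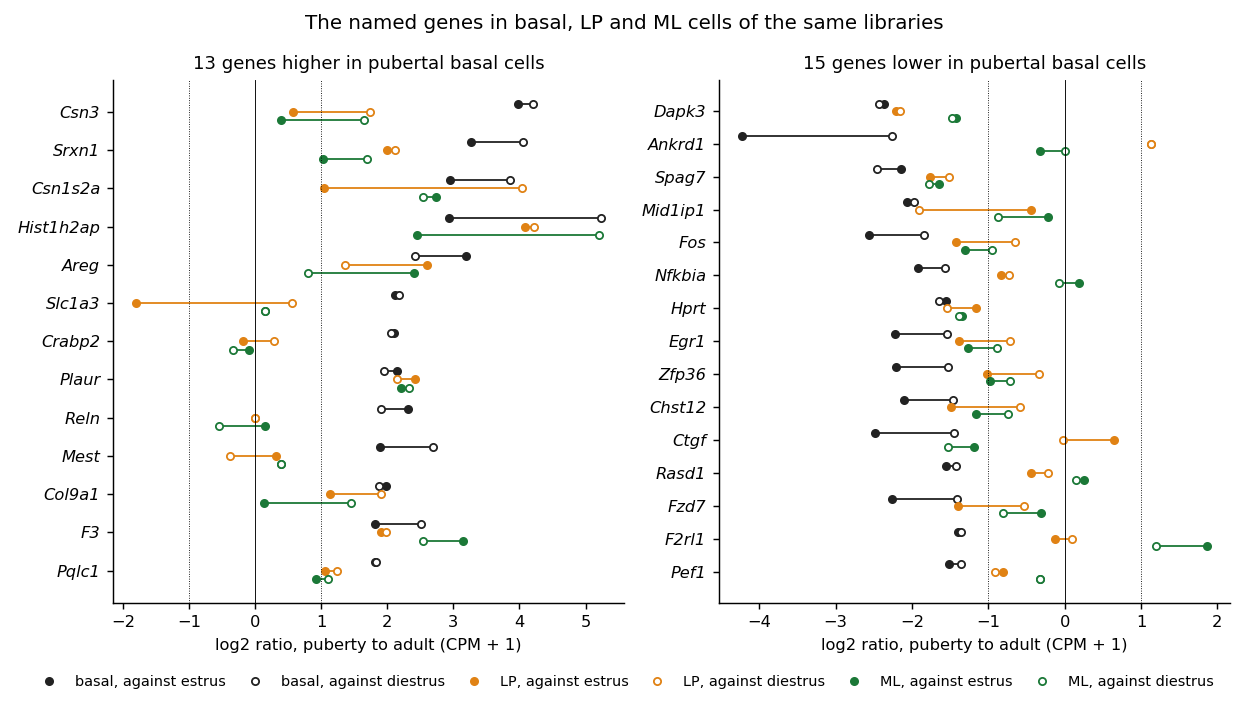
Log2 ratio of puberty to estrus (filled) and to diestrus (open) for 13 of the named higher genes (left) and the 15 named lower genes (right) in basal (black), LP (orange) and ML (green) cells of the same libraries. Srxn1, Plaur and F3 lie to the right of 2-fold in all 3 classes, Dapk3, Spag7 and Hprt to the left, and Reln to the right only in basal cells; LP and ML points of Slc1a3, Ankrd1, Mest and Reln rest on 6 counts or fewer.

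The remaining lower genes named by rule were Mid1ip1, Chst12, Pef1 and the gene model Gm12216. Mid1ip1, a regulator of fatty acid synthesis, was at 7.09, 32.9 and 30.7 CPM (-2.07 and -1.97). Chst12, which sulfates chondroitin, was at 12.5, 57.0 and 36.0 CPM (-2.11 and -1.46). Pef1, a calcium-binding protein, was at 27.5, 80.3 and 71.8 CPM (-1.51 and -1.35), and Gm12216 at 15.9, 73.6 and 40.7 (-2.15 and -1.30).

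The genes also differed in how many cells held them. Among the named higher genes Pqlc1 was found in 61.3% of thinned pubertal basal cells, but Hist1h2ap, Areg, Csn1s2a, Reln and Mest in 6.19% to 7.30%, and 1 cell held 17.6% of the Csn1s2a counts. Among the 808 pubertal, 935 estrus and 837 diestrus basal cells kept by thinning, a pubertal cell had a median of 3 of the 15 higher genes and an adult cell a median of 1. At least 3 of them were found in 51.7% of pubertal cells, 4.60% in estrus and 5.496% in diestrus. For the 15 lower genes the median was 1 in puberty, 5 in estrus and 3 in diestrus. None of the lower genes was found in 25.5% of pubertal cells, 0.963% in estrus and 2.63% in diestrus. These genes were chosen by the same counts, so the shares show how the differences were distributed and do not support them.

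**Figure D5:**
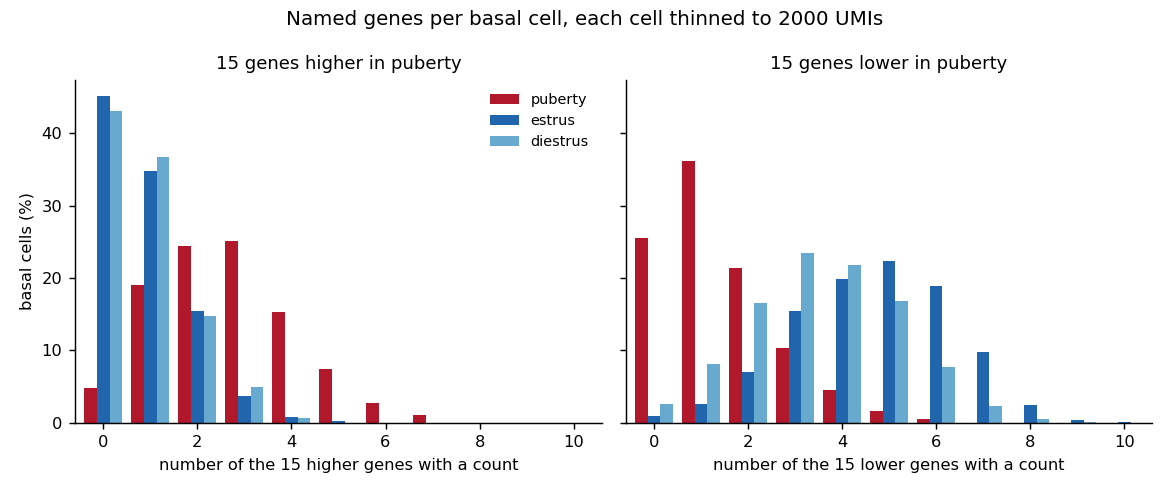
Percent of basal cells (vertical) with each number of the 15 higher genes (left) or 15 lower genes (right) after every cell was thinned to 2000 UMIs. Pubertal cells have a median of 3 higher genes and 1 lower gene, against 1 higher gene in both adult libraries and 5 (estrus) or 3 (diestrus) lower genes.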

How the data were processed

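Sorted mammary epithelium of pubertal and adult mice was run on the 10x Chromium 3′ platform. The deposited values were whole-number UMI counts per gene and barcode, which the authors made with Cell Ranger 2.0 on the mm10 genome from reads of 75 bp. Fewer counts per cell leave low genes with wide intervals. Here, counts were summed over the basal cells of each library and scaled by TMM (edgeR 4.0.16). Genes were kept at a mean of 20 CPM over 3 pools, a pseudocount of 1 CPM was added, and a gene was called at 2-fold against both adult libraries. Ratios have exact conditional intervals without pseudocount, and shares Clopper-Pearson intervals. No test across libraries was possible with 1 library per stage. LP and ML cells for comparison had at least 3 of their own marker genes and at most 2 of the basal genes. Doublets were limited by the luminal maximum of the rule and by an alternative without the 5% of cells with most UMIs; no doublet caller was run. The summing and calling were tested on simulated data. Named genes were, in each direction, the 15 with the largest ratio to the nearer adult library without ribosomal, mitochondrial, haemoglobin or unnamed gene models, the 3 largest of those kinds, the 5 that departed most from LP and ML ratios, and members of 27 gene lists. Irx1, Hmox1, Mt2, Col4a5, Sdc1 and the other genes at the 2-fold limit lie outside this rule and were named after their values were seen. Gene members and lists were chosen with earlier results of these data known. Ltbp4 was not in the tables. Of the 15 higher genes 13 are reported here by name. Positions are from GENCODE M21 (GRCm38).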

Additional observations from a re-analysis of the deposited data

Results flagged for a closer look

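A pair of lower genes of basal cells moved the other way in ML cells, with the counting intervals of all 4 ratios off 0. F2rl1 was lower in pubertal basal cells (-1.40 and -1.36) but higher in pubertal ML cells, with log2 ratios of 1.87 to estrus (interval 1.38 to 2.87) and 1.20 to diestrus (0.69 to 1.96) from 186, 18 and 25 counts. Cd200 was lower in pubertal basal cells (-1.51 and -1.11). In TMM-scaled pools it was slightly higher in pubertal ML cells, at 0.45 to estrus (0.31 to 0.59) and 0.42 to diestrus (0.27 to 0.58). The ML scaling factors were 0.908 in puberty, 1.12 in estrus and 0.987 in diestrus, so part of these small ratios comes from scaling. The share of thinned ML cells with a Cd200 count was 22.9%, 23.3% and 21.5% (38.95%, 42.1% and 40.8% without thinning), so it lay close to both adult shares. With 1 library per stage, the difference between the lineages was not tested.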

How the results depend on the processing

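The count of 2-fold higher genes (74) depended on the minimum level, with 163 at a minimum of 5 CPM, 326 with no minimum and 27 at 100 CPM. The count of lower genes (43) became 140, 285 and 12 under the same settings, and 66 when CPM was averaged over cells. Other settings gave 54 to 94 higher and 31 to 63 lower genes. Similar totals did not mean the same genes. Of the 74 higher and 43 lower genes, 65 and 36 were called again after thinning. When CPM was averaged over cells, 66 and 36 were called again. The share of cycling basal cells in puberty was 3.42% by Mki67 alone, 6.81% after thinning and 7.03% under a stricter basal rule. In estrus it was 1.40% by Mki67 and 3.42% after thinning, and in diestrus 8.42% and 13.3%, and puberty lay between the adult libraries under these settings. In the second puberty table, where thinning kept 471 basal cells, the thinned share was 12.7% (9.86 to 16.1), which overlaps that of diestrus (11.04 to 15.8). None of the 36 genes named for the size of their ratios or their departure from luminal cells turned its direction under the 15 alternatives. Genes named only as list members were not run singly. Of the values of the 36 genes, 486 stayed within the counting interval and 54 left it. A change of the minimum level leaves a gene's ratio as it is. All 36 values therefore stayed by construction under each minimum-level setting, and those settings could not turn a direction. Rasd1 (-0.99) and Nr4a1 (-0.998) missed 2-fold when a keratin count was required, Nr4a1 also in the second puberty table (-0.97, and -0.95 over the same barcodes, an alternative chosen after seeing the data), and F2rl1 when CPM was averaged (-0.87). A stricter basal rule lowered the nearer ratio of Mest to 1.21 and of Csn1s2a to 2.09 and took Mid1ip1 to -2.74. Thinning took Ankrd1 to -1.46, Srxn1 to 3.97, Mid1ip1 to -2.83 and F2rl1 to -1.94, and a pseudocount of 5 CPM took Ankrd1 to -1.43. Without cycling cells Hist1h2ap was at 3.98 and the median of the G2 and M list turned from -0.21 to 0.36. Without the cells of most UMIs these were 3.87 and 0.24, and thinning took that median to 0.016. The TGF-beta and BMP median (-0.11) was 0.045 when CPM was averaged. The medians of the Notch, S phase, basal keratin, basal transcription factor, contractile and cytokine lists, all under 0.1 in size, also changed sign under a setting, and reached at most 0.186 (S phase, without the cells of most UMIs) and -0.152 (transcription factors, second puberty table). The causes were not tested. The depth of 1 library per stage limits genes under 20 CPM most.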
